A study of Homo sapiens with 4 samples.

Results

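Among the 13036 genes listed for HCCLM3 cells, 29 bore the symbol of a plasma protein family of the liver, and 27 of these are described. They were chosen by symbol from the genes with a row: albumin and the other carriers, apolipoproteins, coagulation and complement factors, fibronectin, vitronectin and the whole serpin family. HCCLM3 is an established human hepatoma cell line. RNA was sequenced from 2 shCtrl libraries and 2 shKIAA1429 libraries, the first from cells given a control short hairpin RNA by lentivirus and the second from cells stably carrying a hairpin against KIAA1429, listed here under its current symbol VIRMA. KIAA1429 is a scaffold of the complex that writes N6-methyladenosine on RNA, and the series was made to look for genes downstream of it. All 4 libraries came from the same cell line, a single hairpin was compared with the control, and the labels do not say whether the replicates were separate cultures, so the tests measure the spread between libraries, which may be technical.

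Plasma proteins are made mainly by hepatocytes, which secrete carriers such as albumin, the clotting and complement cascades and the lipid-carrying apolipoproteins. Serpins are protease inhibitors that trap their target in a covalent complex. Many circulate and restrain clotting, fibrinolysis or neutrophil proteases, while clade B serpins stay mostly inside cells and SERPINH1 is a collagen chaperone of the endoplasmic reticulum. Tissue factor, encoded by F3, is a membrane receptor that starts the extrinsic clotting cascade, so the symbol rule gathered secreted, membrane and intracellular proteins.

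The deposited values are FPKM, fragment counts that the authors scaled to transcript length and to the total mapped in a library, and a gene's level is the sum over its listed transcripts. VIRMA was listed at 9.37 and 14.1 FPKM in the shCtrl libraries and at 6.90 and 8.52 FPKM in the shKIAA1429 libraries. The groups did not overlap, and the mean was 0.656 times that of shCtrl, with an exact two-sided permutation p of 0.333, the smallest that 2 against 2 samples can give (log2 fold change -0.53, SE 0.24, limma adjusted p = 0.917). Without shCtrl replicate 2 the log2 fold change of VIRMA was -0.26, and without shCtrl replicate 1 it was -0.80. Genes with at least 1 FPKM in at least 2 libraries were compared with limma on log2(FPKM + 1), and a gene was called at an adjusted p under 0.05 with an absolute log2 fold change over 1. This rule called 0 of the 11657 genes tested (0%), while 656 had an unadjusted limma p under 0.05. Every difference given here is therefore a difference between these libraries that did not pass the adjusted test. In bulk RNA, fewer cells expressing a gene and less of its RNA per cell cannot be told apart.

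The label of a liver plasma protein set fitted these cells only in part. Of 99 protein-coding symbols in the GENCODE annotation that met the symbol rule, 70 had no row and were not analysed here. Albumin (ALB), alpha-fetoprotein (AFP), transferrin (TF), transthyretin (TTR), haptoglobin (HP), the 3 fibrinogen chains and all 6 annotated ITIH genes were among the 70. Each listed transcript reached at least 0.504 FPKM in some library. Of 20 hepatocyte markers, 5 had a row. They summed to 6.97 and 7.13 FPKM with shCtrl, against 10.2 and 10.1 FPKM with shKIAA1429. Of the 2 tested, CPS1 was higher in shKIAA1429 at an unadjusted limma p under 0.05, as were 2.98% of all genes. SERPINA1 did not reach it, and FOXA1, FOXA2 and CEBPA were not tested. By contrast, 4 of 6 epithelial markers had rows that summed to between 2463 and 2727 FPKM. None of the 4 endothelial markers had a row. The members are therefore best described by their leading genes, FN1, SERPINE2 and F3.

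The 27 members described summed to 588.7 and 506.8 FPKM in the shCtrl libraries and to 607.4 and 554.2 FPKM in the shKIAA1429 libraries. The groups overlapped, and the exact two-sided permutation p was 0.667. FN1 held 29.6% of this sum on average, SERPINE2 16.9% and F3 15.1%. The plot of levels by library shows this steep order, from FN1 at a mean of 167.1 FPKM down to F8 at 0.893 FPKM. At the bottom, SERPING1 and F8 reached 1.12 and 1.08 FPKM at most and did not pass the filter on low values, which left 25 members tested.

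**Figure D1:**
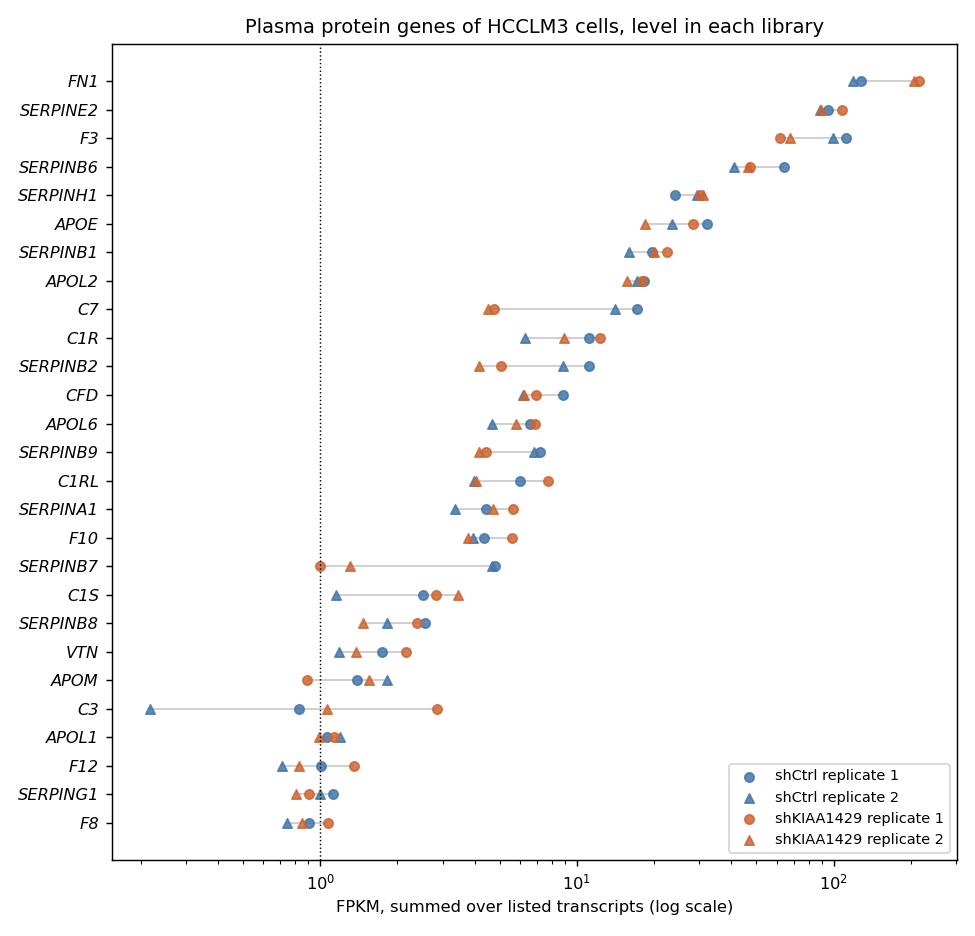
Level of each of the 27 members in FPKM on a log axis, one point per library; grey lines join the lowest and highest library. The libraries separate by group most clearly for C7, SERPINB7, SERPINB2, F3, SERPINB9 and FN1, and the dotted line marks 1 FPKM.

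None of the 25 tested members was called. An unadjusted limma p under 0.05 was reached by 5 members with lower levels in shKIAA1429, namely C7, SERPINB7, SERPINB2, F3 and SERPINB9, which is 20% of the members tested against 2.65% of all genes. In the other direction 1 member, FN1, reached it, which is 4% against 2.98% of all genes. SERPINB7 was at 0.998 FPKM in shKIAA1429 replicate 1 and met the filter on low values only with its shCtrl libraries. With at least 1 FPKM required in every library SERPINB7 was not tested, and 5 members in either direction had an unadjusted limma p under 0.05. The groups did not overlap, with shKIAA1429 lower, for 5 members (20%, against 16.7% of all genes), and with shKIAA1429 higher for 6 members (24%, against 16.9%). The median log2 fold change was 0.10 over the tested members and -0.01 over all genes. The plot of changes shows most members inside the range that holds the 5th to the 95th percentile of all genes, from -0.43 to 0.43. Below it were 5 members, and above it were C3, FN1 and C1S. C3 passed the filter on low values only through the shKIAA1429 libraries.

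**Figure D2:**
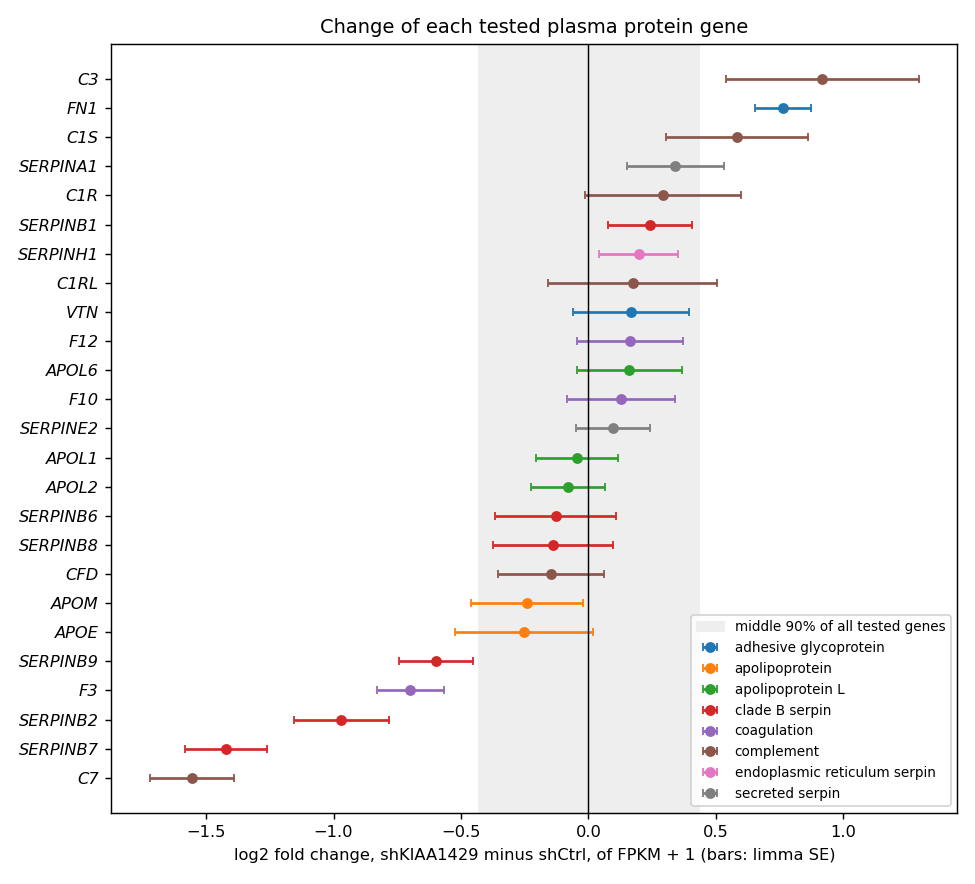
Log2 fold change of log2(FPKM + 1), shKIAA1429 minus shCtrl, for each of the 25 tested members, coloured by role, with limma standard errors. The grey band runs from the 5th to the 95th percentile of all 11657 genes tested; C7, SERPINB7, SERPINB2, F3 and SERPINB9 lie below it and C3, FN1 and C1S above it.

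Fibronectin (FN1) and vitronectin (VTN) are adhesive glycoproteins that bind integrins and matrix. FN1 (chr2:216225163-216300895, minus strand, GRCh37) was listed at 128.2 and 119.1 FPKM with shCtrl, against 215.2 and 206.1 FPKM with shKIAA1429. Both shKIAA1429 libraries were higher, and the spread within each group was small, with means ± SD (n = 2) of 123.7 ± 6.48 and 210.6 ± 6.42 FPKM. On the log2 scale FN1 was higher by 0.76 (SE 0.11, 95% interval 0.48 to 1.05, limma adjusted p = 0.366), which placed FN1 above 98.8% of the genes tested. VTN was low, at 1.74 and 1.18 FPKM with shCtrl, against 2.17 and 1.38 FPKM with shKIAA1429, and its groups overlapped.

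Fibronectin made by hepatocytes for plasma lacks the cassette exons called extra domain A (EDA) and extra domain B (EDB), which cells that lay down matrix include. Both exons are coding, each encodes one type III repeat, and their lengths of 270 and 273 bases are multiples of 3. They are shown because they separate the plasma form from the cellular form among the listed transcripts. EDA is at chr2:216245534-216245803 and EDB at chr2:216257654-216257926 (GRCh37, minus strand, printed 5′ to 3′), with the exon in capitals and 10 intronic bases on each side in lower case.
FN1 EDA: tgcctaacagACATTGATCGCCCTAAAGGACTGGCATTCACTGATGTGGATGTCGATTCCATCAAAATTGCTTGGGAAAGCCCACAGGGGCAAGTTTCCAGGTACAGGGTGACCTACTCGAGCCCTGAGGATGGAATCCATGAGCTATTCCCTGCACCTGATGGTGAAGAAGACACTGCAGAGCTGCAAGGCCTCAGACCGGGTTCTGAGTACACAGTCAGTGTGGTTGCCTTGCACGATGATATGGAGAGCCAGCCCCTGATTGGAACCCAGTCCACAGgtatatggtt
FN1 EDB: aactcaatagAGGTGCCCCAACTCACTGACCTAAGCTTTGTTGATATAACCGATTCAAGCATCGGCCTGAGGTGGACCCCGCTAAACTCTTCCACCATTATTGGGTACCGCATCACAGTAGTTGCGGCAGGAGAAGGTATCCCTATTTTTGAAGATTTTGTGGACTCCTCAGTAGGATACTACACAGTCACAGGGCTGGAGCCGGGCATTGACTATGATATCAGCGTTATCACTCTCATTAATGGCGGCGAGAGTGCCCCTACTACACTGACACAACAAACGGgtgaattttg

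FN1 transcripts with EDA, 5 in number, summed to 54.0 and 57.8 FPKM with shCtrl, against 98.4 and 65.0 FPKM with shKIAA1429. The 6 transcripts that span the exon and lack it summed to 65.5 and 55.1 FPKM with shCtrl, against 91.6 and 124.8 FPKM with shKIAA1429. Both sums were higher in the 2 shKIAA1429 libraries, while the share with EDA, at 45.2% and 51.2% in shCtrl and 51.8% and 34.3% in shKIAA1429, overlapped between the groups. Among the 10 transcripts that span both exons, 27.8% and 36.1% of the FPKM in shCtrl carried EDB, compared with 37.6% and 13.7% in shKIAA1429. The plasma form, lacking both exons, held 35.5% and 28.3% in shCtrl and 26.6% and 48.6% in shKIAA1429. Among these 10 transcripts, forms with either exon summed to more than the plasma form in every library. In shKIAA1429 replicate 2 the sums were close, at 68.6 FPKM with either exon and 65.0 FPKM lacking both. This order rests on how fragments were divided between overlapping transcripts, and it leaves out the FN1 transcripts that do not span both exons. None of the shares given here separated the groups.

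Single FN1 transcripts did not all follow the gene. FN1-201 was listed at 1.36 and 13.3 FPKM with shCtrl, against 23.8 and 1.53 FPKM with shKIAA1429, and FN1-204 at 6.94, 5.27, 7.43 and 32.3 FPKM in the same order. Libraries of the same group differed widely for both. FN1-213 starts inside the EDB exon, lacks EDA, and was steadier, at 33.7 and 31.5 FPKM with shCtrl, against 55.1 and 56.2 FPKM with shKIAA1429. FN1-208 was listed at 0.741 and 0.325 FPKM with shCtrl, against 2.67 and 3.03 FPKM with shKIAA1429, and FN1-210 at 8.08, 5.83, 22.5 and 13.3 FPKM in the same order. Both were higher in the 2 shKIAA1429 libraries, also as a share of FN1, and neither was called when each transcript was tested (limma adjusted p of 0.355 and 0.619). The tool that divided fragments between these overlapping transcripts is not given in the sources used here, so the gene sum is the firmer value.

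Tissue factor (F3, chr1:94994781-95007356, minus strand, GRCh37) was the highest clotting gene. It was listed at 112.2 and 99.7 FPKM with shCtrl, against 62.0 and 67.7 FPKM with shKIAA1429, so that both shKIAA1429 libraries were lower. The log2 fold change was -0.70 (SE 0.13, 95% interval -1.04 to -0.36, limma adjusted p = 0.477) and the mean was 0.612 times that of shCtrl. All 4 listed transcripts were lower in both shKIAA1429 libraries. F3-201, the full-length form, was at 83.4 and 74.9 FPKM with shCtrl, against 45.8 and 50.02 FPKM with shKIAA1429.

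F3-202 lacks a coding exon of 160 bases at chr1:94997877-94998036 and corresponds to alternatively spliced tissue factor, a form without the membrane anchor. The exon is printed because its use decides between the membrane and the soluble form, again in capitals with 10 intronic bases on each side. Its length is not a multiple of 3, so skipping it shifts the reading frame.
F3 cassette exon: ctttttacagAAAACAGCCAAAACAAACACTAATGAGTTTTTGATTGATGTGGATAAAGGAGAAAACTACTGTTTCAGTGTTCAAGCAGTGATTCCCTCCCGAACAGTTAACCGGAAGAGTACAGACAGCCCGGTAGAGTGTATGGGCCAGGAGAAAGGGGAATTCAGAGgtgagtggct

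F3-202 was listed at 4.50 and 4.16 FPKM with shCtrl, against 2.64 and 2.39 FPKM with shKIAA1429. Its share of the 2 coding forms was 5.12% and 5.26% in shCtrl and 5.44% and 4.55% in shKIAA1429, so the membrane form and the soluble form were lower together. F10 and F12, encoding the factors X and XII, ranged from 3.77 to 5.59 FPKM and from 0.711 to 1.35 FPKM, with overlapping groups. F8, the gene of factor VIII, ranged from 0.742 to 1.08 FPKM and was not tested. Its only listed transcript, F8-201, has 5 exons and 648 coding bases. No other F8 transcript had a row, so this level need not stand for RNA of the clotting factor.

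In the complement group the terminal component C7, which joins the membrane attack complex after C5b and C6, had the largest difference on log2(FPKM + 1). With a pseudocount of 0.1 in place of 1 the log2 fold change was -1.73 for C7 and 1.77 for C3. C7 (chr5:40909354-40983041, plus strand, GRCh37) was listed at 17.2 and 14.0 FPKM with shCtrl, against 4.76 and 4.49 FPKM with shKIAA1429. The groups were far apart relative to their spread, and the mean in shKIAA1429 was 0.296 times that of shCtrl. The log2 fold change was -1.56 (SE 0.17, 95% interval -1.98 to -1.13, limma adjusted p = 0.279), and only 0.0858% of the genes tested lay lower. The coding transcript C7-201 carried this difference, at 16.0 and 13.7 FPKM with shCtrl, against 4.30 and 4.18 FPKM with shKIAA1429.

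The other complement genes pointed the other way or overlapped. C3, the central component of all 3 activation routes, was listed at 0.830 and 0.217 FPKM with shCtrl, against 2.86 and 1.06 FPKM with shKIAA1429. Both shCtrl values were under 1 FPKM, so C3 passed the filter on low values only through the shKIAA1429 libraries. The groups did not overlap, but the shKIAA1429 libraries differed from each other by more than the gap between the groups, and the log2 fold change was 0.92 (SE 0.38, 95% interval -0.06 to 1.90, limma adjusted p = 0.898). It was 0.47 without shKIAA1429 replicate 1 and 1.37 without shKIAA1429 replicate 2. C1S, a serine protease of the C1 complex, was listed at 2.51 and 1.15 FPKM with shCtrl, against 2.82 and 3.44 FPKM with shKIAA1429, with a log2 fold change of 0.58 (SE 0.28, limma adjusted p = 0.921) that was 0.23 without shCtrl replicate 2. Its transcript C1S-203 was listed at 0 in both shCtrl libraries and at 0.644 and 2.81 FPKM in shKIAA1429.

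C1R, the partner protease of C1S, was listed at 11.1 and 6.26 FPKM with shCtrl, against 12.3 and 8.91 FPKM with shKIAA1429, and its groups overlapped. Its 3 listed transcripts lie in 2 separate stretches of chromosome 12 in this build, so its sum is less certain. C1RL, a C1r-like protease, ranged from 3.96 to 7.74 FPKM. CFD, the protease that cleaves factor B, was listed at 8.83 and 6.16 FPKM with shCtrl, against 6.96 and 6.22 FPKM with shKIAA1429. The groups of both genes overlapped.

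Neither SERPINE2 nor SERPINA1, the secreted serpins described that were tested, reached an unadjusted p under 0.05. SERPINE2, protease nexin 1, a thrombin and urokinase inhibitor on cell surfaces, was listed at 95.1 and 88.7 FPKM with shCtrl, against 108.1 and 89.2 FPKM with shKIAA1429, with a log2 fold change of 0.10 (SE 0.14, 95% interval -0.28 to 0.47). SERPINA1, alpha-1-antitrypsin, the inhibitor of neutrophil elastase, was the only clade A serpin with a row.

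SERPINA1 was listed at 4.42 and 3.34 FPKM with shCtrl, against 5.63 and 4.70 FPKM with shKIAA1429. Both shKIAA1429 libraries were higher, and the log2 fold change was 0.34 (SE 0.19, 95% interval -0.15 to 0.83, limma adjusted p = 0.944). SERPING1, the C1 inhibitor, ranged from 0.809 to 1.12 FPKM.

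Clade B serpins, which inhibit proteases mostly inside cells, held 3 of the 5 members with lower levels at an unadjusted p under 0.05. Thus 3 of the 6 tested (50%) reached it in this direction, against 2.65% of all genes. SERPINB7, among these 3, met the filter on low values only with its shCtrl libraries. They lie in 2 clusters (GRCh37): SERPINB7, SERPINB2 and SERPINB8 between positions 61442644 and 61656605 of chromosome 18, and SERPINB1, SERPINB9 and SERPINB6 between positions 2832566 and 2972399 of chromosome 6. Of the 6, SERPINB1 alone had a positive log2 fold change, while 48.1% of all genes did, and the median was -0.37.

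SERPINB7, a serpin best known from keratinocytes of the skin, was listed at 4.81 and 4.69 FPKM with shCtrl, against 0.998 and 1.30 FPKM with shKIAA1429. The shCtrl libraries agreed closely and both shKIAA1429 libraries were far below them. The log2 fold change was -1.42 (SE 0.16, 95% interval -1.843 to -1.0004, limma adjusted p = 0.279). None of the 4 squamous keratinocyte markers had a row. SERPINB2, an inhibitor of urokinase, was listed at 11.2 and 8.85 FPKM with shCtrl, against 5.07 and 4.14 FPKM with shKIAA1429, with a log2 fold change of -0.97 (SE 0.19, 95% interval -1.45 to -0.48, limma adjusted p = 0.494).

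SERPINB9, the inhibitor of granzyme B, was listed at 7.21 and 6.83 FPKM with shCtrl, against 4.44 and 4.16 FPKM with shKIAA1429. The groups were well apart relative to their spread, and the log2 fold change was -0.60 (SE 0.15, 95% interval -0.97 to -0.22, limma adjusted p = 0.644). Without shCtrl replicate 1 the unadjusted limma p of SERPINB9 was 0.0544 and no longer under 0.05.

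The other clade B genes had smaller differences. SERPINB8, an inhibitor of furin, was listed at 2.57 and 1.82 FPKM with shCtrl, against 2.37 and 1.47 FPKM with shKIAA1429. SERPINB1, an inhibitor of neutrophil proteases, was listed at 19.6 and 16.0 FPKM with shCtrl, against 22.4 and 19.9 FPKM with shKIAA1429, with a log2 fold change of 0.24 (SE 0.17, limma adjusted p = 0.960). SERPINB6, an inhibitor of cathepsin G, was listed at 64.3 and 40.8 FPKM with shCtrl, against 47.2 and 46.4 FPKM with shKIAA1429, with overlapping groups. Whether SERPINB7 and SERPINB9 differed from their neighbours was not tested.

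Transcript forms of the clade B genes were assigned unevenly between libraries. SERPINB2-201 and SERPINB2-205, which share their coding exons, were listed at 3.94 and 7.22 FPKM in shCtrl replicate 1 but at 8.79 and 0.0576 FPKM in shCtrl replicate 2. SERPINB7-202 and SERPINB7-207 also share their coding exons and differ in the first exon, and they were likewise listed at 2.12 and 2.68 FPKM in shCtrl replicate 1 and at 4.37 and 0.312 FPKM in shCtrl replicate 2. The summed levels of both genes kept the groups apart.

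**Figure D3:**
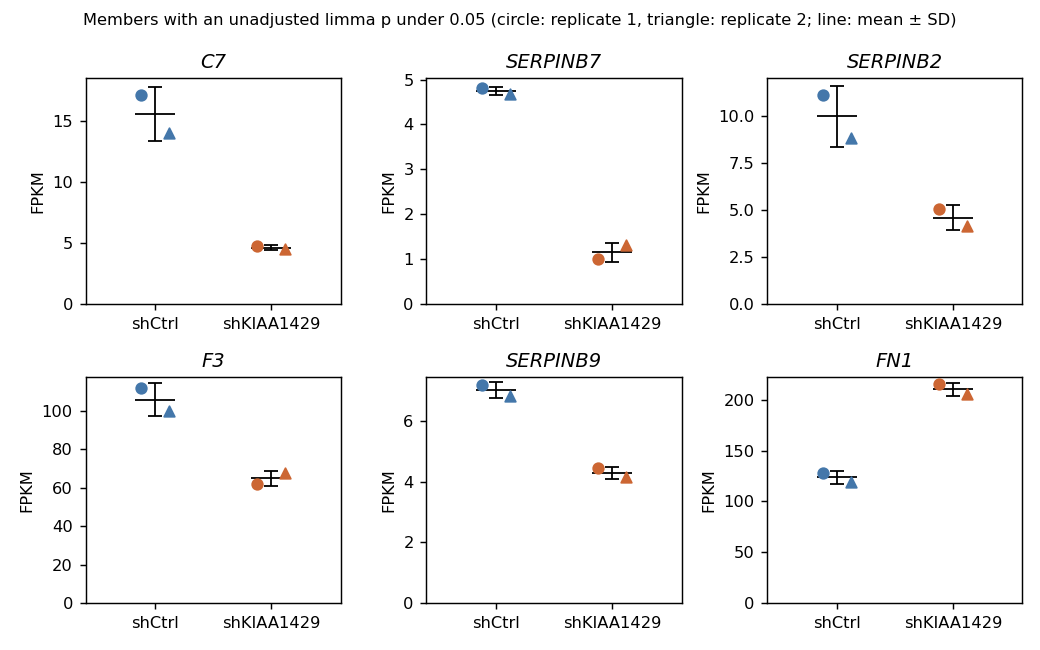
FPKM of the 6 members with an unadjusted limma p under 0.05, one panel each, with the axis from 0; circles are replicate 1, triangles replicate 2, and lines give the mean and SD of 2 libraries. In each panel the groups do not overlap; FN1 is higher in shKIAA1429 and C7, SERPINB7, SERPINB2, F3 and SERPINB9 are lower.

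SERPINH1, the collagen chaperone HSP47, was listed at 24.02 and 29.4 FPKM with shCtrl, against 30.2 and 31.0 FPKM with shKIAA1429. Both shKIAA1429 libraries were higher, but the means differed by less than the shCtrl libraries did from each other (log2 fold change 0.20, SE 0.15, limma adjusted p = 0.969). APOE, the ligand of lipoprotein receptors, was listed at 32.2 and 23.5 FPKM with shCtrl, against 28.5 and 18.4 FPKM with shKIAA1429, with overlapping groups and a log2 fold change of -0.25 (SE 0.27, 95% interval -0.96 to 0.45). APOM, a carrier of sphingosine-1-phosphate, ranged from 0.889 to 1.82 FPKM.

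The apolipoprotein L genes encode channel-like proteins, of which APOL1 is the trypanosome-lytic factor of serum. APOL1 ranged from 0.989 to 1.19 FPKM and APOL6 from 4.67 to 6.89 FPKM. APOL2 was listed at 18.3 and 17.2 FPKM with shCtrl, against 17.9 and 15.6 FPKM with shKIAA1429, so its sum did not separate the groups (log2 fold change -0.08, SE 0.15, 95% interval -0.46 to 0.30). Its transcripts did: APOL2-201 was listed at 15.2 and 8.66 FPKM in shCtrl and at 0 in both shKIAA1429 libraries. APOL2-202 was listed at 2.74 and 5.84 FPKM with shCtrl, against 13.3 and 14.0 FPKM with shKIAA1429.

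In the GENCODE annotation the 2 APOL2 transcripts have the same coding exons, 1011 bases in all, and differ at the 5′ end. There APOL2-201 has an additional first exon at chr22:36635778-36636000 (GRCh37) and a longer second exon, reaching 36635607 against 36635573 in APOL2-202. The APOL2-202 listed with FPKM runs to 36635689, so the second exon of the quantified form may differ from this annotation. In the annotation the difference between the 2 transcripts is thus in noncoding sequence. Tested transcript by transcript, neither was called (limma adjusted p of 0.149 for APOL2-201 and 0.522 for APOL2-202), and a transcript listed at 0 may be a failed estimate. The plot of transcripts shows the exchange within an even sum, beside F3, in which every form was lower.

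**Figure D4:**
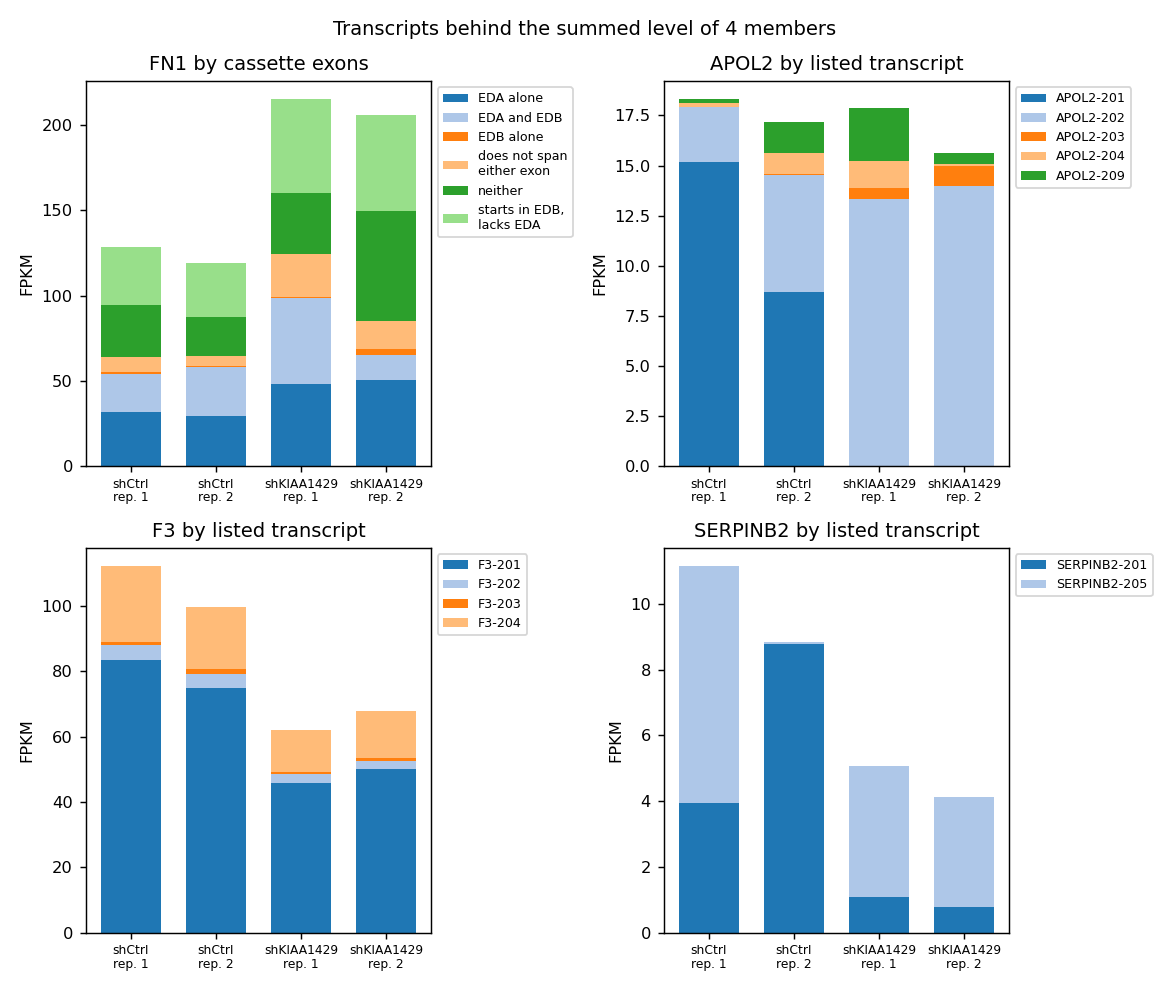
FPKM of FN1 by cassette exon content and of APOL2, F3 and SERPINB2 by listed transcript, stacked for each of the 4 libraries. The FN1 bars are taller and the F3 and SERPINB2 bars shorter in shKIAA1429, APOL2-201 is at 0 in both shKIAA1429 libraries while the APOL2 total stays between 15.6 and 18.3 FPKM.

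Promoter sequence was read for the members whose levels stood apart. RefSeq windows of 250 bases before a gene's start (GRCh38.p14) were given for 21 of the 27 members. Each window was searched on both strands for TGANTCA, TGACGTCA, the cAMP response element, and TATAAA, the letters of the TATA box. TGANTCA is a loose form of the AP-1 site, which has G or C in the middle, since N allows any letter. No stretch can match both TGANTCA and TGACGTCA. These windows are printed because F3, SERPINB2 and C7 were lower and FN1 higher. SERPINB7 and SERPINB9 were lower as well, and their windows were searched but are not printed. Capitals mark the matches on either strand. The positions are chr1:94541760-94542009 for F3 (minus strand), chr18:63887455-63887704 for SERPINB2 (plus strand), chr5:40909247-40909496 for C7 (plus strand) and chr2:215436069-215436318 for FN1 (minus strand).
F3: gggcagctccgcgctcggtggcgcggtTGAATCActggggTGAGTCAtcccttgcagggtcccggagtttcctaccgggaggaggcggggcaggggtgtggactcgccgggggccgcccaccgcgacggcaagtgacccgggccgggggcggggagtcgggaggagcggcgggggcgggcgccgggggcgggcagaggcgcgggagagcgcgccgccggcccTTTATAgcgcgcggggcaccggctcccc
SERPINB2: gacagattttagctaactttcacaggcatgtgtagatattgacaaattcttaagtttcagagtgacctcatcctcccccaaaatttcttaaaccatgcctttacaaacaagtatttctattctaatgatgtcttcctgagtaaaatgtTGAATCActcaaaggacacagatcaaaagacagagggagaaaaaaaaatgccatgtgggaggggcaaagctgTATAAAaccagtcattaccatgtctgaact
C7: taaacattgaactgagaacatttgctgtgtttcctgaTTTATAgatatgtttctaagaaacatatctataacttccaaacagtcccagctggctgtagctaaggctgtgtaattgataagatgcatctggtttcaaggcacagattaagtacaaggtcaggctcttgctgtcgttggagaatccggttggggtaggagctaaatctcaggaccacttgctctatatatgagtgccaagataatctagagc
FN1: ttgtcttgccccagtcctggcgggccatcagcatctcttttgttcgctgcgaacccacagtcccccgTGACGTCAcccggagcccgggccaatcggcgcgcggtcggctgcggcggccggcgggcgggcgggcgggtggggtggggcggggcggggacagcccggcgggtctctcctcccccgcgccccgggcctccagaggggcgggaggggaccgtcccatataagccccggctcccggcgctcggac

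TGANTCA was found 223 and 210 bases before the start of F3 and 102 bases before that of SERPINB2, and in windows of SERPINB7, SERPINB8 and C1RL. The SERPINB2 match read TGAATCA, with a middle letter outside the AP-1 site. TGANTCA was thus in 5 of the 21 members with a window, compared with 8.06% of the 27305 genes in the table. The windows of C7 and SERPINB9 did not hold these letters. TGACGTCA was found 183 bases before the start of FN1 and in no other member, compared with 2.03% of all genes. TATAAA was found in 6 members, compared with 13.05% of all genes. It lay 28 bases before the start of F3 and 30 bases before those of SERPINB2 and SERPINB9. The other matches were 213 bases before the start in C7, 127 and 33 in windows of SERPINB7, and 142 and 140 in SERPINB8. The matches of F3 and C7 and that at 33 bases in SERPINB7 were on the strand opposite to the gene. Those of SERPINB2 and SERPINB9 were on the gene's own strand. The letters were searched with the differences known, and a match is a description of sequence only.

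Genes that act with the plasma proteins were read from lists of partners. For comparison, 51.9% of all genes tested had a negative log2 fold change, and 2.65% were lower and 2.98% higher at an unadjusted p under 0.05. Among 12 tested targets and partners of serpins and tissue factor, 1 had an unadjusted limma p under 0.05. The plasminogen activators, targets of SERPINB2 and SERPINE2, overlapped between groups: PLAU was listed at 256.8 and 152.2 FPKM with shCtrl, against 193.1 and 127.4 FPKM with shKIAA1429, and PLAT at 322.6 and 274.8 FPKM with shCtrl, against 353.6 and 284.3 FPKM with shKIAA1429. TFPI, the inhibitor of the tissue factor pathway, was listed at 36.4 and 30.3 FPKM with shCtrl, against 46.6 and 31.4 FPKM with shKIAA1429, with overlapping groups. The member of the list under 0.05 was HTRA1, a secreted serine protease, at 0.842 and 1.07 FPKM with shCtrl, against 3.31 and 3.36 FPKM with shKIAA1429.

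Of 3 membrane complement regulators, CD59, which blocks the attack complex that C7 joins, was listed at 123.4 and 117.1 FPKM with shCtrl, against 93.3 and 97.8 FPKM with shKIAA1429 (log2 fold change -0.33, SE 0.11). Of 6 tested receptors and transfer proteins of lipoproteins and transferrin, 5 had a negative log2 fold change and 1, ABCA1, had an unadjusted p under 0.05. ABCA1, which loads lipid onto apolipoproteins, was listed at 12.6 and 10.3 FPKM with shCtrl, against 8.24 and 6.52 FPKM with shKIAA1429 (log2 fold change -0.58, SE 0.19).

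Of 44 acute phase and other liver plasma proteins beyond the symbol rule, 10 had a row and 8 were tested. IGFBP1 and IGFBP2, both binding proteins of insulin-like growth factors, pointed opposite ways. IGFBP1 was listed at 20.6 and 28.9 FPKM with shCtrl, against 11.7 and 10.3 FPKM with shKIAA1429, and IGFBP2 at 4.57 and 4.41 FPKM with shCtrl, against 11.9 and 9.70 FPKM with shKIAA1429. Of 9 genes of interleukin 6 signalling, IL6R alone had an unadjusted p under 0.05, at 3.60 and 2.83 FPKM with shCtrl, against 1.75 and 1.87 FPKM with shKIAA1429. None of the 4 tested liver transcription factors and none of the 5 fibronectin- and vitronectin-binding integrins had an unadjusted p under 0.05, although 8 of 17 liver transcription factors had a row. The integrin chain ITGB1 ranged from 117.1 to 140.6 FPKM and ITGA5 from 33.1 to 37.7 FPKM.

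Summed levels of marker lists for other cell types were compared as well. Mesenchymal markers, 6 of 7 with a row, summed to 1213 and 1365 FPKM with shCtrl, against 1632 and 1487 FPKM with shKIAA1429. VIM held most of this sum, at 962.1 and 1033 FPKM with shCtrl, against 1227 and 1196 FPKM with shKIAA1429, and was the 1 marker of the list with an unadjusted p under 0.05. THY1 pointed the other way, at 36.2 and 41.9 FPKM with shCtrl, against 27.4 and 34.4 FPKM with shKIAA1429, CDH2 was higher in both shKIAA1429 libraries, and ZEB1, SPARC and COL1A1 overlapped between the groups. Epithelial markers summed to 2525 and 2463 FPKM with shCtrl, against 2650 and 2727 FPKM with shKIAA1429, with KRT7 and KRT19 higher at an unadjusted p under 0.05. Their part in the difference of FN1 was not tested. Blood and macrophage markers overlapped between the groups, from 46.7 to 56.3 FPKM.

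**Figure D5:**
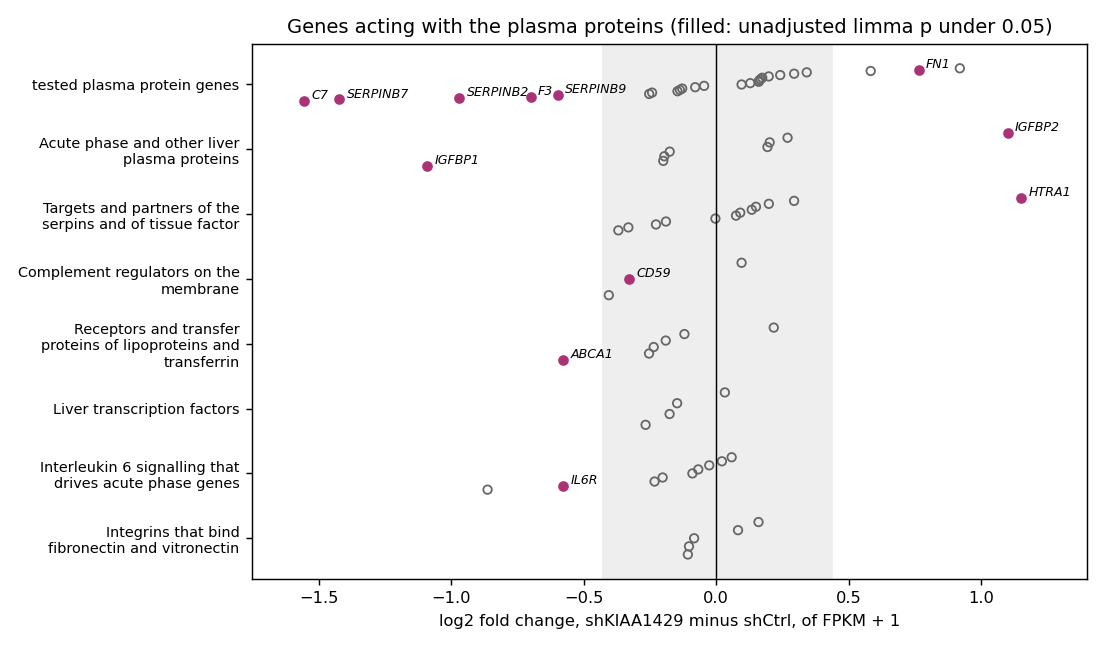
Log2 fold change of log2(FPKM + 1), shKIAA1429 minus shCtrl, for the tested members and for the tested genes of 7 partner lists, one point per gene. Filled and named points have an unadjusted limma p under 0.05, and the grey band runs from the 5th to the 95th percentile of all genes; each partner list holds at most 2 filled points.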

How the data were processed

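RNA was sequenced from 2 shCtrl and 2 shKIAA1429 libraries of HCCLM3 cells, grouped by their titles. The deposited files hold FPKM per annotated transcript, which the authors made with a quantification tool not given in the sources used here. By their methods the authors aligned reads with TopHat and compared counts by DESeq, and the submitters' processing notes name Bowtie2 2.1.0 and hg19. The paper reports differentially expressed genes from its comparison, so the lack of called genes here holds for limma on FPKM. FPKM depend on the total mapped, depth is unknown, and each of the 38510 listed transcripts reached 0.504 FPKM in some library.

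FPKM of all listed transcripts of a gene were summed. Genes with at least 1 FPKM in at least 2 libraries (11657) entered a two-sided limma 3.58.1 fit (R 4.3.3; lmFit, then eBayes with a mean trend) of log2(FPKM + 1) on group, where the prior had 2.87 degrees of freedom, with Benjamini-Hochberg adjustment over all genes tested. The pseudocount makes fold changes of low genes too small. Single values were compared by exact permutation. Symbols turned into dates in some files, 108 at most, were read from another file. Overlapping genes and close paralogs remain uncertain, since no source says how strand or multiply mapped reads were handled.

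Members and gene lists were chosen with earlier results of these data known. Of the 29 members, 2 are not reported here and enter no count, sum or figure of the members, nor does 1 partner gene; the fit across all genes kept them. Values per library are given for the 12 highest members, the 6 largest changes each way, members with a transcript under 0.1 FPKM in both libraries of one group and at 1 FPKM or more in both of the other, and VIRMA; partner genes named beyond this were chosen after their values were seen. Exons were read from GRCh37 with GENCODE 44 lifted to that build, and promoter windows from RefSeq. The test was checked on simulated data with errors drawn independently for each library. In these data the libraries numbered 1 deviated from their group means together, a pattern that this check does not cover. Alternatives were a pseudocount of 0.1, other filters, upper quartile scaling, a replicate block, robust variances, coding rows alone, single transcripts, each threshold alone and leaving out each replicate. Python 3.11.15 and matplotlib 3.10.9 drew the figures.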

Additional observations from a re-analysis of the deposited data

How the results depend on the processing

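No member was called under any alternative with a test. A log2 fold change over 1 in either direction, with no test, was found for 125 genes and 2 members, C7 and SERPINB7. Leaving out each replicate in turn gave 0 to 1 called genes (1 without shCtrl replicate 1) and 0 called members; there the lone library of a group is assumed to vary like the other group. The count of members with an unadjusted p under 0.05, 6 in the report, was between 5 and 7 under the alternatives, which for this count were chosen after seeing the data. The median log2 fold change of members was between -0.10 and 0.18 without one replicate. Of 178 alternatives for single named genes, 172 kept the direction and 6 reversed it. All 6 left out a replicate: without one replicate the log2 fold changes ranged, for SERPINE2 -0.042 to 0.23 (reversed without shKIAA1429 replicate 1), for SERPINB6 -0.45 to 0.19 (reversed without shCtrl replicate 1), for APOE -0.55 to 0.049 (reversed without shKIAA1429 replicate 2), for APOL2 -0.17 to 0.010 (reversed without shKIAA1429 replicate 2), for C1R -0.077 to 0.66 (reversed without shCtrl replicate 2), for CFD -0.37 to 0.082 (reversed without shCtrl replicate 1). Without changing direction, the values without shCtrl replicate 1 and without shCtrl replicate 2 were -0.80 and -0.26 for VIRMA, 0.93 and 0.23 for C1S, 0.50 and 0.18 for SERPINA1, 0.38 and 0.10 for SERPINB1, and 0.058 and 0.34 for SERPINH1. For C3 the value was 0.47 without shKIAA1429 replicate 1 and 1.37 without shKIAA1429 replicate 2. With a pseudocount of 0.1 the order of the largest changes differed, at 1.77 for C3, -1.73 for C7 and -1.97 for SERPINB7. The cause was not tested.

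With the replicate number as a replicate block, 0 genes and 0 members were called, and 7 members had an unadjusted p under 0.05, the 6 in the report and C3 (limma p of 0.0610 without the block and 0.00517 with it, adjusted p = 0.369). C3 passed the filter on low values only through the shKIAA1429 libraries, so its p with the block is no support for a difference. The samples share only a number: the deviations of the libraries numbered 1 from their group means correlated at 0.32 over all genes and 0.47 over the members, and no label says what the number marks. With unknown depth and 2 libraries a group, the counting error of low members such as C3 and C1S is not known.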

Other observations

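Among the 25 tested members, 19 (76%) were higher in the library numbered 1 than in the library numbered 2 of both groups, compared with 31.6% of the 11657 genes tested. APOE, CFD and C1RL were among them. The labels do not say what the number marks, and the reason was not tested.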
